A study of Mus musculus with 62 samples.

Results

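Neocortex of mice carrying a melanoma that causes cachexia (CAC) was compared between 8 and 6 weeks after the tumour cells were injected. The comparison asks which expression differences were still growing between these weeks and which had stopped. It used the 7 libraries labelled CAC at 8 weeks and the 5 labelled CAC at 6 weeks, 12 of the 62 libraries of the study, chosen by label and not by any measured value. Mice given melanoma cells that do not cause cachexia (NCAC) and mock-injected mice served for comparison, with 5 libraries of each at 8 and at 6 weeks. All mice were female and were injected at 2 months of age, so mice sampled at 8 weeks were also older than those sampled at 6 weeks. The design text names NCI Ath/nude mice, the sample labels name strain C57BL6/J, and the host is therefore uncertain. The T cell gene Cd3e was at 0 to 0.201 TPM in the CAC 8 week libraries and at 0 TPM in all 5 CAC 6 week libraries. Each library is labelled as a biological replicate. All 32 libraries of weeks 6 and 8 were run on the same lane, lane 4. Body weight and tumour size are not in the files used here, so the stage of cachexia of each mouse is known only by its week.

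In cachexia, muscle and adipose tissue are lost in the course of a chronic disease such as cancer. Inflammatory cytokines from the tumour and the host reach the brain vessels, where endothelial cells, astrocytes and perivascular cells answer with acute phase genes such as Lcn2. Stress and undernutrition also raise adrenal glucocorticoids, which act through a nuclear receptor on a shared set of target genes in neurons, glia and vessels.

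Depth was estimated at 46.7 to 48.8 M reads in the CAC 8 week libraries and 47.8 to 50.6 M in the CAC 6 week libraries. A transcript of 2000 bases at 1 TPM (transcript abundance scaled to 1000000 per library) then corresponds to 27.5 reads. Slc17a7, which marks excitatory cortical neurons, was at 986 to 1240 TPM at 8 weeks and at 1037 to 1158 TPM at 6 weeks, so the labelled tissue was present in each library. CAC 8 week replicate 3 stood apart by its erythroid genes, with Hbb-bs at 8702 TPM against 68.3 to 1113 TPM in the other 6 libraries of its group. CAC 8 week replicate 5 had high olfactory and thalamus markers, with Omp at 15.1 TPM against 0.141 to 2.30 TPM in the others. CAC 6 week replicate 1 had high hypothalamic transcripts, with Hcrt at 25.0 TPM against 0.0961 to 0.387 TPM in the others. CAC 6 week replicate 2 was highest in microglia and MHC class I genes. Ttr, the defining transcript of the choroid plexus, was at 1374, 2448 and 1498 TPM in CAC 8 week replicates 1, 6 and 7 and at 48.2 to 150 TPM in the other 4, against 2412 and 2577 TPM in CAC 6 week replicates 1 and 4 and 7.13 to 165 TPM in the other 3. Among the mock libraries, 8 week replicate 5 stood apart, with Ighm at 256 TPM and Cd3e at 3.20 TPM. Beyond the values given, the part of these differences in the results was not tested.

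Between 8 and 6 weeks no gene passed the test in the CAC libraries. By limma, 0 of 15115 genes (0%) had an adjusted p under 0.05, voom on estimated reads also called 0, and the lowest adjusted p was 0.447. At an unadjusted p under 0.05 there were 500 genes, 339 higher and 161 lower at 8 weeks, which is 3.31% of those tested. Without CAC 8 week replicate 3 limma again called 0 genes (0%), with 741 at an unadjusted p under 0.05. The same 2 weeks gave 0 calls (0%) in mock mice, with 644 at an unadjusted p under 0.05, and 0 calls (0%) in NCAC mice, with 797, although array weights gave 1863 calls in NCAC mice. The CAC change less the mock change, which tests whether the cachectic mice moved differently, gave 0 calls (0%) with 215 at an unadjusted p under 0.05. The CAC change less the NCAC change gave 0 calls (0%) with 263. Voom called 0 in each of these as well.

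A missed threshold does not show that a level stayed, so the 95% interval of each change was used to say how large a change the data allow. Its width came from the spread within all 12 groups of the study, and not from the CAC libraries alone. For a gene that varied more among CAC libraries than in other groups, the interval may be too narrow and bounded may be too strong. The interval lay wholly within 0.5 log2 units of zero for 13826 of 15115 genes (91.5%), for 13585 without replicate 3, and for 12179 by voom and 12622 with a pseudocount of 0.1; such a change is called bounded here. Precision depended on level. Of genes under 2 TPM 73.7% were bounded in this way, and of genes at 20 to 100 TPM 97.3%. At the wider limit of 1 log2 unit 14929 genes were bounded, and at the narrower limit of 0.3 there were 10699. The median change over all tested genes was 0.02, and 62.4% of changes were positive, a shift that was also present in mock mice (median 0.03). In bulk tissue, fewer cells of a type and less RNA per cell cannot be told apart.

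Differences from mock mice were already present at 6 weeks. CAC libraries differed from mock in 240 of 15115 genes (1.59%) at 6 weeks, 179 higher and 61 lower, and in 1292 genes (8.55%) at 8 weeks, 734 higher and 558 lower, or 1829 (12.1%) without CAC 8 week replicate 3. By direction these were 1.18% higher and 0.404% lower at 6 weeks, and 4.86% higher and 3.69% lower at 8 weeks (7.38% and 4.72% without replicate 3). The counts rested on few libraries. The 6 week count was 56 without CAC replicate 1, 138 without CAC replicate 4, 420 without CAC replicate 3, and 96 and 136 without mock replicates 3 and 4. The 8 week count was 799 and 747 without CAC replicates 1 and 6. The 6 and 8 week contrasts with mock share no library with each other, but each shares CAC libraries with the change between weeks. All 179 genes higher at 6 weeks had a positive difference at 8 weeks, where 145 were called. All 61 lower genes had a negative difference, and 56 were called. The median difference of the 179 genes was 0.35 at 8 weeks and 0.39 at 6 weeks, and their median change from 6 to 8 weeks was -0.002 with replicate 3 and 0.036 without it. The median difference of the 61 genes was -0.44 at both weeks. Of the 179 genes 151 had a change bounded within 0.5 log2 units, and of the 61 genes 53. The genes were chosen on the 6 week libraries, so their values at 6 weeks and their change are a description. The sizes of the 8 week differences are the part the choice did not use. The calls at both weeks rest on 1 spread per gene, pooled over all 12 groups. The counts called at 8 weeks are therefore not independent of the choice. The larger count of differences from mock at 8 weeks stood beside 0 calls in the direct comparison of the weeks, and the CAC group had 7 libraries at 8 weeks against 5 at 6 weeks.

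Library by library, most of these 240 genes lay outside the mock range in all but 1 of the 12 CAC libraries. In 6 of the 7 CAC 8 week libraries 83.8% to 96.1% of the 179 higher genes were above every mock library of week 8, and 82.0% to 98.4% of the 61 lower genes were below every mock library. In replicate 3 the shares were 34.1% (61 genes) and 55.7% (34 genes). In the CAC 6 week libraries, on which the genes were chosen, the shares were 86.6% to 99.4% and 77.0% to 100% against the mock libraries of week 6. Replicate 3 was thus the CAC library nearest to mock, and it was also the one with the highest erythroid level, whose part in this was not tested.

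**Figure D1:**
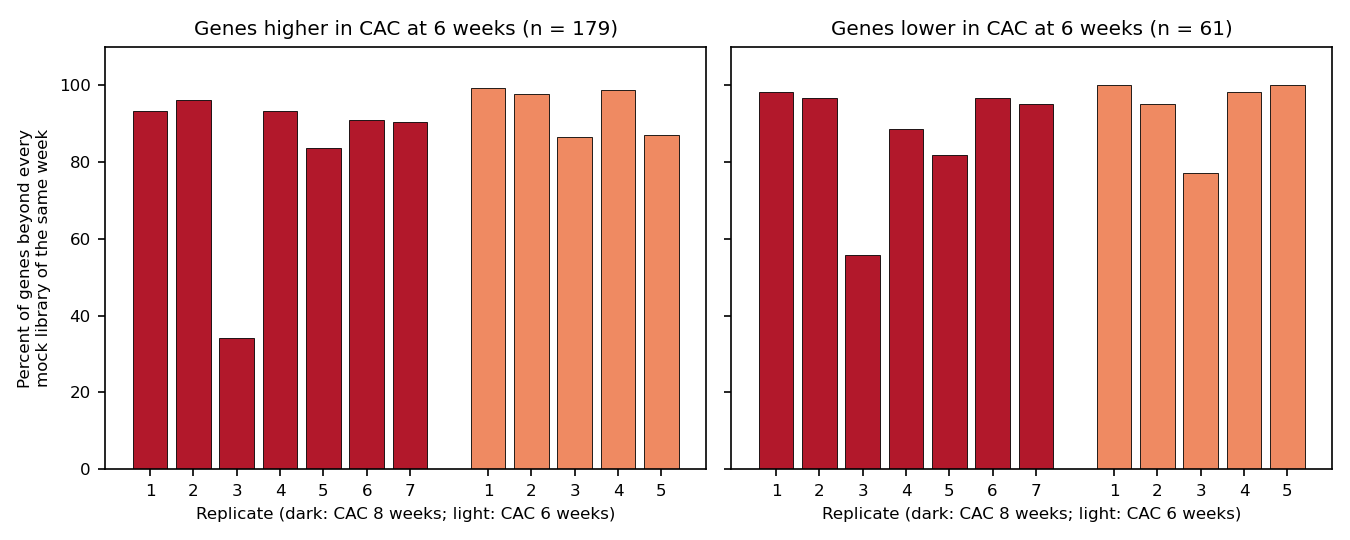
Percent of the genes called higher (left, n = 179) or lower (right, n = 61) in CAC than in mock at 6 weeks that lay beyond every mock library of the same week, for each CAC 8 week library (dark bars) and each CAC 6 week library (light bars). Replicate 3 of CAC 8 weeks stands at 34.1% and 55.7%, below each of the other 11 libraries.

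Among acute phase and cytokine genes Lcn2 (chromosome 2, 32384633 to 32388252, minus strand, GRCm38) had the largest change of the 16 tested members. Its product, lipocalin 2, sequesters bacterial siderophores and is secreted in inflammation. Lcn2 was at 1.99, 4.02, 13.2, 4.50, 4.62, 3.66 and 4.68 TPM in CAC 8 week replicates 1 to 7, against 3.49, 3.30, 2.21, 1.15 and 1.19 TPM in CAC 6 week replicates 1 to 5. The groups overlapped only through 8 week replicate 1, which lay below 6 week replicates 1, 2 and 3, and the other 6 libraries of 8 weeks lay above every library of 6 weeks. The log2 change was 0.85 (95% interval 0.43 to 1.27, limma adjusted p = 0.447), and 0.63 (0.26 to 0.99, adjusted p = 0.897) without replicate 3. An exact permutation test over the 12 libraries gave p = 0.0341 (two-sided), or 0.955 after Benjamini-Hochberg adjustment over 28 genes. Mock libraries were at 0.302 to 0.911 TPM at 8 weeks and 0.206 to 0.513 TPM at 6 weeks, so every CAC library was above them at both times. The CAC medians at 2, 4, 6 and 8 weeks were 0.265, 0.796, 2.21 and 4.50 TPM (weeks 2 and 4 of CAC were sequenced on lane 3). Lcn2 is also made by neutrophils, whose markers had mean log2 levels of 1.58 to 2.87 at 8 weeks, with 2.40 in replicate 3, and of 1.67 to 2.71 at 6 weeks.

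Other genes of this list had smaller changes. Lrg1, a secreted leucine-rich glycoprotein, was at a lowest, median and highest of 5.12, 14.1 and 25.4 TPM at 8 weeks, against 23.2, 8.30, 9.58, 12 and 6.06 TPM at 6 weeks. Its change was 0.35 (-0.19 to 0.89), and 0.56 (0.05 to 1.07) without replicate 3, its lowest 8 week library, with a limma adjusted p = 1 and 0.897. The oncostatin M receptor gene Osmr averaged 2.67 ± 0.44 TPM at 8 weeks (SD, n = 7) and 2.66 ± 0.44 TPM at 6 weeks (n = 5), with a change of 0.004 that was bounded between -0.22 and 0.23. Il1r1, the signalling receptor for interleukin 1, had a bounded change of 0.22 (-0.03 to 0.47). Bcl3 and Socs3, targets of cytokine signalling, had changes of 0.01 and 0.04, both bounded within 0.5. Of the 22 listed genes 6 were too low to test, among them Il6 and Tnf, with means of 0.0822 and 0.116 TPM at 8 weeks and 0.103 and 0.126 TPM at 6 weeks. The median change of the tested members was 0.01, with 12 of 16 bounded, and 0 passed the test. That median was 0.12 without CAC 6 week replicate 2 and -0.02 without CAC 6 week replicate 5, so its sign was not settled. Against mock 9 of the 16 were called higher at 8 weeks, where 4.86% of all tested genes were, and 9 at 6 weeks, where 1.18% were.

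**Figure D2:**
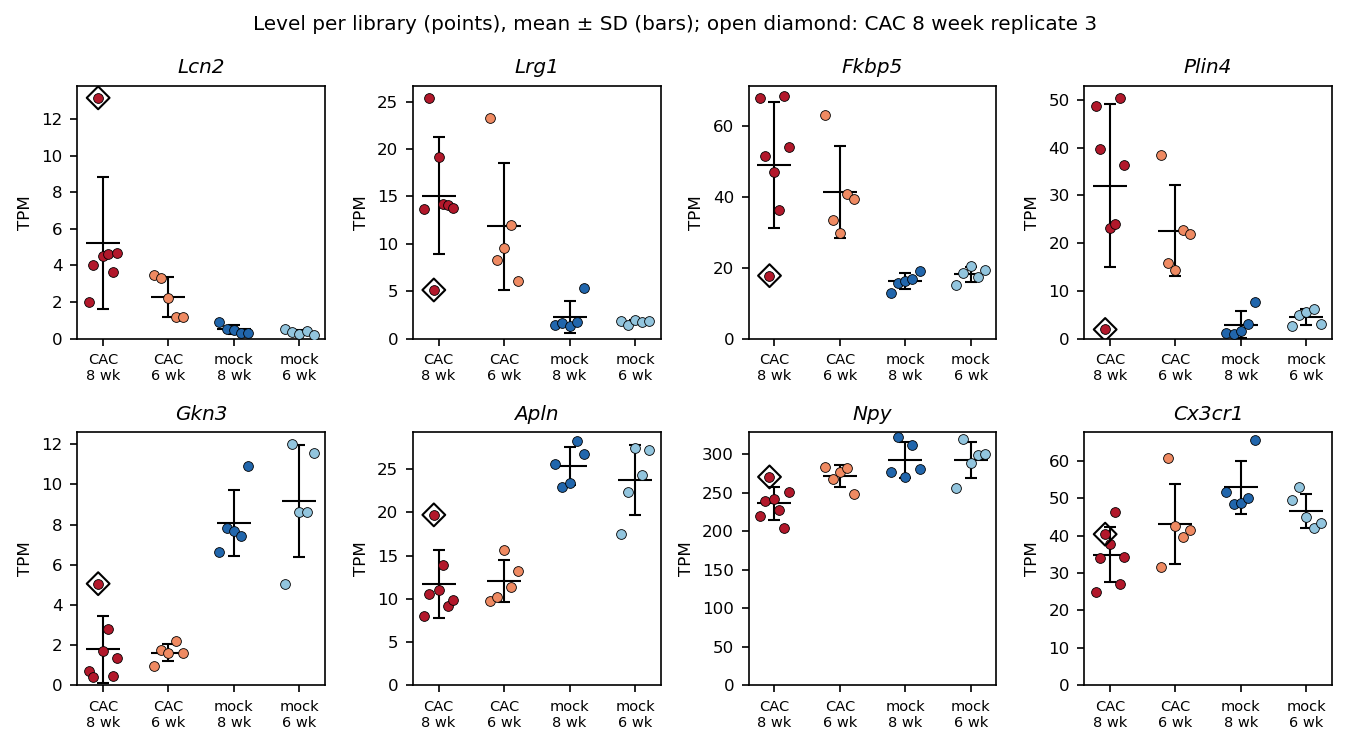
Level in TPM of 8 genes in each library of CAC 8 weeks, CAC 6 weeks, mock 8 weeks and mock 6 weeks, with mean ± SD; the open diamond marks CAC 8 week replicate 3. The CAC weeks overlap for each gene, and replicate 3 lies within the 8 week mock range for Lrg1, Fkbp5 and Plin4 but is the highest library for Lcn2. For Lrg1 it lies near the top of that range, at 5.12 TPM. The 8 week mock median of Lrg1 was 1.64 TPM and the highest mock library was at 5.29 TPM.

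Of 18 tested glucocorticoid-responsive genes 14 had a positive change, with a median of 0.10, against -0.14 in mock. The median was 0.23 without replicate 3 and 0.19 without CAC 6 week replicate 1, 0.04 and 0.05 without CAC 8 week replicates 1 and 6, 0.05 without CAC 6 week replicate 3, and 0.01 with the replicate number as a block. Of the 18, 8 were bounded and 0 passed the test. Fkbp5 (chromosome 17, 28399094 to 28517527, minus strand, GRCm38), a co-chaperone that restrains the glucocorticoid receptor, was at a lowest, median and highest of 17.7, 51.4 and 68.4 TPM at 8 weeks, against 62.9, 33.4, 29.7, 40.8 and 39.3 TPM at 6 weeks. The value of 17.7 TPM was that of replicate 3 and lay within the mock range of week 8, 13 to 19.2 TPM. The next lowest, 36.1 TPM, lay above it. The change was 0.18 (-0.28 to 0.64, limma adjusted p = 1), and 0.40 (-0.02 to 0.82, adjusted p = 0.897) without that library. Plin4, a lipid droplet coat protein, was at 1.90 TPM in replicate 3, against 23.2 to 50.4 TPM in the other 8 week libraries and 14.4 to 38.4 TPM at 6 weeks. With all libraries the change of Plin4 was 0.19 and its interval -1.03 to 1.40, so a change of 1 log2 unit either way lies within it. Without replicate 3 the change of Plin4 was 0.71. Sult1a1, a sulfotransferase, stood at 11.3 TPM in replicate 3, against 41.3 to 72.3 TPM in the others and 33.3 to 64.9 TPM at 6 weeks. The change of Sult1a1 was 0.09, and 0.40 without replicate 3.

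Mean log2 levels over the glucocorticoid list were 6.11 to 6.67 in 6 CAC 8 week libraries, 5.45 in replicate 3, 5.99 to 6.51 in the CAC 6 week libraries, 5.13 to 5.63 in mock at 8 weeks and 5.43 to 5.63 in mock at 6 weeks. Replicate 3 was thus within the mock range of week 8, but only through mock replicate 5, at 5.63. Mock 8 week replicates 1 to 4 were at 5.13 to 5.39, below replicate 3. The metallothionein gene Mt1, whose product binds zinc and copper, averaged 1075 ± 245 TPM at 8 weeks (SD, n = 7) and 1151 ± 215 TPM at 6 weeks (n = 5), with a bounded change of -0.12 (-0.36 to 0.13). Against mock, 15 of 18 members were called higher at 8 weeks, where 4.86% of all tested genes were, and 6 at 6 weeks, where 1.18% were. The change itself was called in none of the members, and the median difference from mock was 0.72 at 8 weeks and 0.63 at 6 weeks. For Sgk1, a kinase gene, the mock ranges of the weeks did not overlap, at 29.9 to 39.6 TPM at 8 weeks and 41.7 to 55.5 TPM at 6 weeks. The CAC level was 65.1 to 116 TPM at 8 weeks and 67.5 to 115 TPM at 6 weeks.

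**Figure D3:**
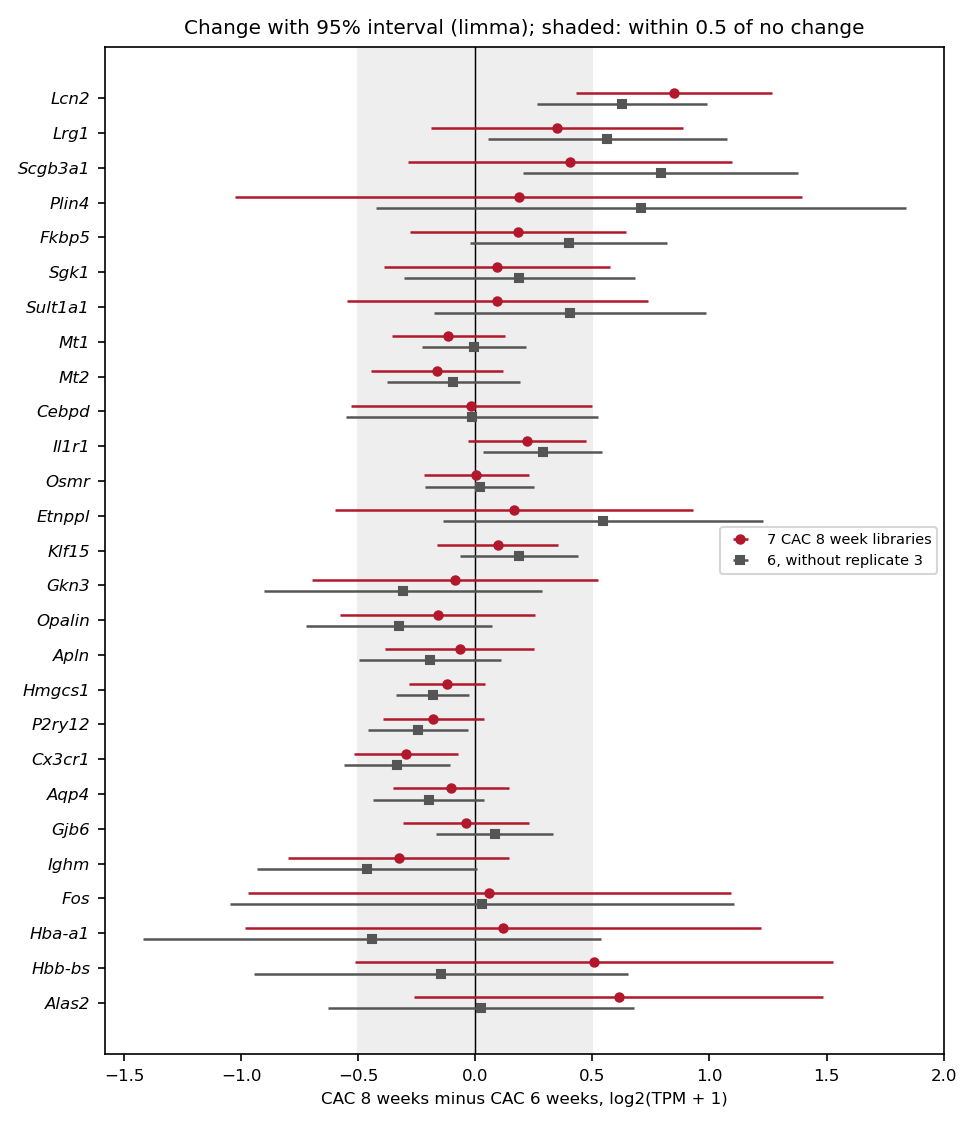
Change from 6 to 8 weeks in CAC libraries, as log2(TPM + 1) with its 95% interval from limma, for 27 genes, with all 7 CAC 8 week libraries (circles) and without replicate 3 (squares); the shaded band spans 0.5 either side of no change. Mt1, Osmr, Klf15 and Hmgcs1 lie wholly within the band in both fits, and with all libraries Lcn2 lies farthest to the right and only Lcn2 and Cx3cr1 have an interval that excludes zero. The unadjusted exact permutation p over the CAC libraries alone was 0.0341 for Lcn2 and 0.144 for Cx3cr1.

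Secretory and metabolic genes that mark the cachectic neocortex also differed between replicate 3 and the other 8 week libraries. The secretoglobin gene Scgb3a1 was at a lowest, median and highest of 0.723, 6.92 and 25.7 TPM at 8 weeks, against 7.2, 2.81, 9.43, 11.9 and 1.82 TPM at 6 weeks, while mock libraries did not exceed 0.488 TPM. The change was 0.40 (-0.29 to 1.10), and 0.79 (0.20 to 1.38) without replicate 3. Etnppl, an astrocyte enzyme that degrades phosphoethanolamine, was at 2.74 TPM in replicate 3, within the mock range of 1.52 to 2.84 TPM, and at 17.2 to 29.0 TPM in the other 8 week libraries. At 6 weeks it was at 22.7, 15.6, 15.5, 17.3 and 8.54 TPM. The change of Etnppl was 0.17, and 0.55 without replicate 3. Gjb6, which encodes the astrocyte gap junction protein connexin 30, averaged 103 ± 20.5 TPM at 8 weeks (SD, n = 7) and 104 ± 12.9 TPM at 6 weeks (n = 5), with a bounded change of -0.04 (-0.31 to 0.23). In replicate 3 it was at 59.8 TPM. Of 23 named genes that were called against mock at 8 weeks, replicate 3 lay inside the mock range for 11, and each of the other CAC libraries for 0 or 1. That range spans the lowest to the highest of 5 mock libraries, so lying inside it does not mean lying at the mock median. Mt1 was at 661 TPM in replicate 3, against an 8 week mock median of 659 TPM. Il1r1 was at 3.23 TPM there, against a mock median of 2.12 TPM and a highest mock value of 3.24 TPM.

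For genes that were lower in CAC than in mock mice, the CAC libraries of the 2 weeks overlapped. Gkn3, a gastrokine gene of arterial endothelium in mouse brain, was at a lowest, median and highest of 0.422, 1.33 and 5.05 TPM at 8 weeks, against 0.959, 1.73, 1.58, 2.19 and 1.61 TPM at 6 weeks. Mock libraries were at 6.63 to 10.9 TPM at 8 weeks and 5.05 to 12 TPM at 6 weeks. The change was -0.09 (-0.70 to 0.52), and 3 of the 8 week libraries lay below every 6 week library. The highest 8 week value, 5.05 TPM, was that of replicate 3. Apln, the ligand of the apelin receptor, averaged 11.7 ± 3.97 TPM at 8 weeks (SD, n = 7) and 12 ± 2.45 TPM at 6 weeks (n = 5), with a bounded change of -0.07 (-0.38 to 0.25). Without replicate 3 the change of Apln was -0.19. The myelin gene Opalin had a change of -0.16 (-0.58 to 0.26), and -0.33 without replicate 3. Ighm, the immunoglobulin mu constant gene, was at 16.1, 21.7 and 39.7 TPM at 8 weeks (lowest, median and highest), against 19.3, 33.8, 24.7, 29.7 and 36.3 TPM at 6 weeks. Its change was -0.33 (-0.80 to 0.14), and -0.46 without replicate 3, its highest 8 week library.

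Cholesterol synthesis genes had a median change of -0.05, or -0.08 without replicate 3, and all 22 tested members were bounded within 0.5. Hmgcs1, which commits acetoacetyl-CoA to the pathway, was at a lowest, median and highest of 145, 163 and 222 TPM at 8 weeks, against 157, 176, 190, 190 and 227 TPM at 6 weeks. The ranges overlapped, and the change was -0.12 (-0.28 to 0.04, limma adjusted p = 1). Against mock 13 of the 22 were called lower at 8 weeks and 1 at 6 weeks, with median differences of -0.26 and -0.15. Over all tested genes 3.69% were called lower at 8 weeks and 0.404% at 6 weeks. Msmo1 and Sc5d, enzymes late in the pathway, had changes of -0.14 and -0.13, and neither passed the test. The same list had a median change of 0.06 in mock.

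Microglia markers had a median change of -0.22, with 14 of 15 members negative, 3 of them at an unadjusted p under 0.05, and 0 passed the test. This median rested on a single library, replicate 2 of 6 weeks. CAC 6 week replicate 2 had Tyrobp, an adaptor of microglial receptors, at 122 TPM, against 44.2 to 48.6 TPM in the other 6 week libraries and 33.5 to 54.4 TPM at 8 weeks. Without it the median of the list was 0.02. Cx3cr1, the fractalkine receptor, was at a lowest, median and highest of 24.8, 34.2 and 46.3 TPM at 8 weeks, against 31.5, 60.7, 42.5, 39.7 and 41.6 TPM at 6 weeks. The change of Cx3cr1 was -0.30 (-0.52 to -0.08, limma adjusted p = 1) with all libraries and -0.17 without 6 week replicate 2. P2ry12, the purinergic receptor of resting microglia, was at 27.2, 40.7 and 50.4 TPM at 8 weeks (lowest, median and highest), against 31.6, 47.3, 39.6, 50.5 and 49.5 TPM at 6 weeks, a bounded change of -0.18. Against mock 7 of the 15 microglia markers were called lower at 8 weeks and 1 at 6 weeks, beside 3.69% and 0.404% of all tested genes. Each of these counts includes a library that was high on this list. Mock 8 week replicate 5 had a mean log2 level of 5.66, against 5.04 to 5.12 in the other mock libraries of that week. CAC 6 week replicate 2 was at 5.60, against 4.64 to 4.84 in its group. Their part in the counts was not tested.

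Interferon-induced and MHC class I genes varied by mouse. The MHC class I heavy chain gene H2-K1 was at 69.6 TPM in CAC 6 week replicate 2, against 16.4 to 23.3 TPM in the other 6 week libraries. At 8 weeks it was at 16.6 to 25.0 TPM, apart from 35.4 TPM in replicate 3. The MHC class I list had a median change of -0.04, which was 0.14 without 6 week replicate 2 and -0.11 without 8 week replicate 3. The interferon list had a median change of 0.05, with mean log2 levels of 2.25 to 2.73 in 6 CAC 8 week libraries and 3.19 in replicate 3, against 2.21 to 2.38 in 4 CAC 6 week libraries and 3.26 in replicate 2. Without replicate 3 the interferon median was -0.03. The interferon median was 0.24 without 6 week replicate 2. In mock mice 8 week replicate 5 reached 3.93 on this list, against 2.58 to 2.81 in the other 4, and the mock median change was 0.31. On the MHC class I list the same mock library reached 5.49, against 3.26 to 3.44 in the other 4. The mock median change of that list was 0.48. The part of this library in the mock changes was not tested.

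**Figure D4:**
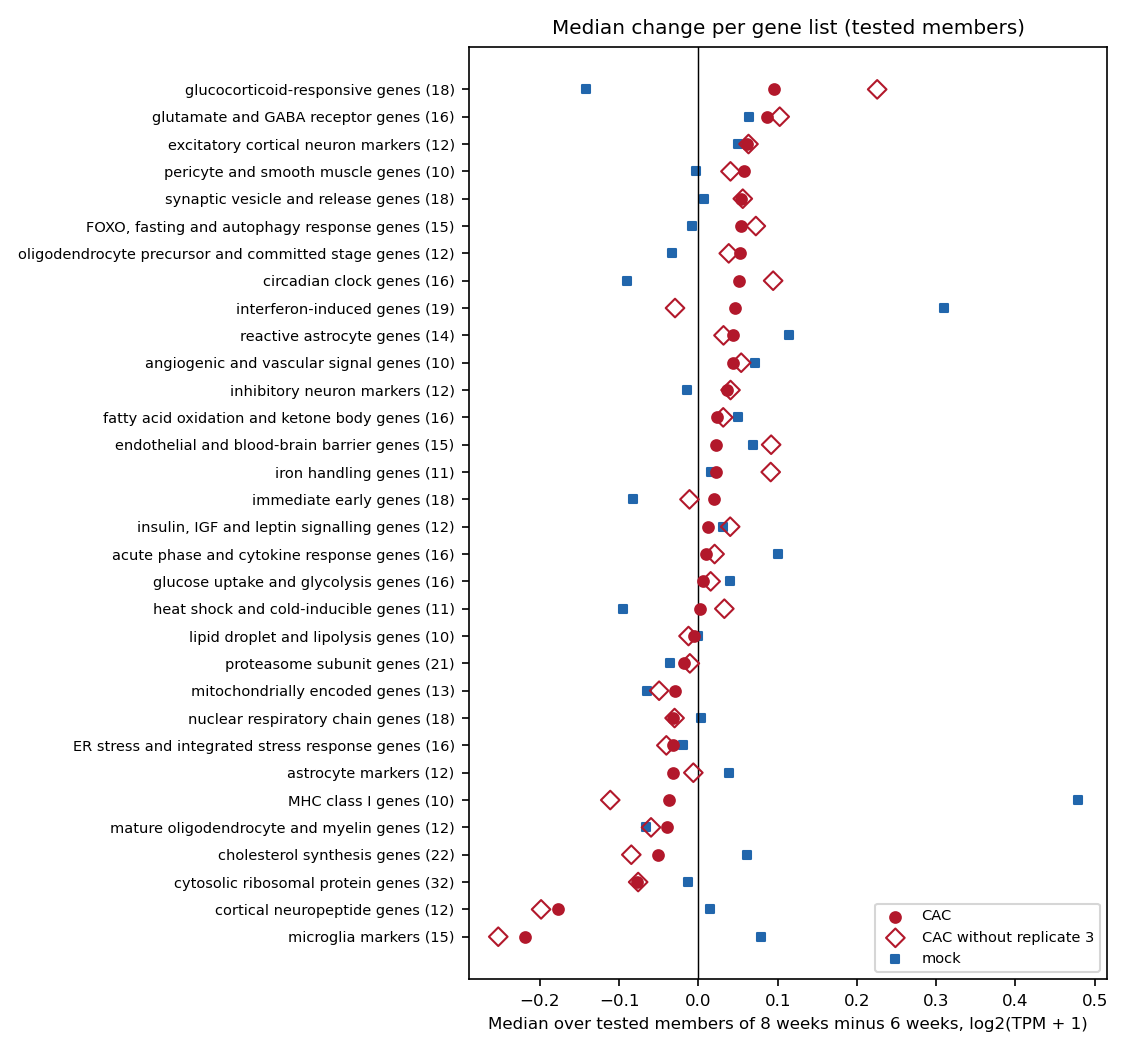
Median change from 6 to 8 weeks over the tested members of each of 32 gene lists (number of members in brackets), in CAC with all libraries (filled circles), in CAC without 8 week replicate 3 (open diamonds) and in mock (squares), as log2(TPM + 1). With all libraries the CAC medians lie between -0.22 and 0.10, and without replicate 3 between -0.25 and 0.23, with microglia markers lowest and glucocorticoid-responsive genes highest in these 2 fits, while mock MHC class I and interferon genes lie at 0.48 and 0.31. Mock 8 week replicate 5 was the highest mock library on both of these lists.

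Cortical neuropeptide genes had a median change of -0.18 with 11 of 12 members negative, against a median of 0.02 over all tested genes and 0.01 for the same list in mock. No member passed the test. Npy (chromosome 6, 49822710 to 49829507, plus strand, GRCm38), the neuropeptide Y gene, was at 204, 239 and 271 TPM at 8 weeks (lowest, median and highest), against 284, 268, 277, 282 and 249 TPM at 6 weeks. The 8 week libraries lay below the 6 week libraries apart from the overlap of replicates 3 and 7 with the lowest 2. The change of Npy was -0.21 (-0.36 to -0.05, limma adjusted p = 1). Sst, the somatostatin gene, was at 546, 768 and 947 TPM at 8 weeks, against 915, 748, 915, 977 and 813 TPM at 6 weeks, a change of -0.23 (-0.42 to -0.04). Bdnf, a growth factor released with neuronal activity and not a neuropeptide, had a change of -0.33 (-0.65 to -0.01), while Vip and Crh had 0.08 and -0.005. The list median lay between -0.21 and -0.14 in each of 23 alternative settings, including those without a library. Inhibitory neuron markers as a list had a median of 0.04, and -0.05 without CAC 8 week replicate 5.

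Genes of neuronal signalling and of protein synthesis showed small shifts within the bounds. Glutamate and GABA receptor genes had 14 of 16 positive changes with a median of 0.09, which was 0.01 without CAC 6 week replicate 2. The same list had a median of 0.06 in mock and 0.09 in NCAC mice. Synaptic vesicle and release genes had 16 of 18 positive with a median of 0.05, which was 0.01 without CAC 6 week replicate 2. That list had a median of 0.01 in mock and 0.07 in NCAC mice. Cytosolic ribosomal protein genes had 0 of 32 positive with a median of -0.08, against -0.01 in mock and -0.07 in NCAC mice. The 2 with the lowest p were Rpl23 at -0.10 and Rps18 at -0.13, and all 32 were bounded. None of these members passed the test. Mitochondrially encoded genes had a median of -0.03, which was 0.02 without CAC 6 week replicate 2 and -0.06 without CAC 6 week replicate 3, and all 13 were bounded. Their median was -0.07 in mock and -0.08 in NCAC mice. FOXO, fasting and autophagy response genes, which rise when insulin signalling falls, had 13 of 15 positive with a median of 0.05 and all 15 bounded. For this list the median was -0.007 in mock and 0.03 in NCAC mice. In the circadian clock list Nr1d1, a repressor of the clock, was at 92.6 to 155 TPM at 8 weeks and at 71.9 to 132 TPM at 6 weeks, a change of 0.26 (0.03 to 0.50, limma adjusted p = 1), and time of day of sampling is not in the labels.

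By lowest p, the 12 higher at 8 weeks were Gpat2, Lcn2, Wdpcp, Wdr66, Scly, Gin1, Grm8, Rab26, Shroom1, Pigq, Enpep and Cntn6, and none passed. Gpat2 (chromosome 2, 127425199 to 127436092, plus strand, GRCm38), a glycerol-3-phosphate acyltransferase, was at 1.74, 1.29, 3.04, 1.90, 1.66, 1.76 and 3.98 TPM in CAC 8 week replicates 1 to 7, against 1.35, 0.613, 0.859, 0.712 and 0.771 TPM in CAC 6 week replicates 1 to 5. The groups overlapped by 1 library each. In mock it was at 1.87 to 3.41 TPM at 8 weeks and 1.45 to 3.87 TPM at 6 weeks, so the 6 week CAC libraries were below mock (log2 difference -0.91, limma adjusted p = 0.0057), while at 8 weeks the difference was -0.14 (adjusted p = 0.705). Gpat2 was chosen by its change between the weeks, which used these same CAC libraries, so both differences from mock are a description. The CAC change of Gpat2 was 0.74 (0.38 to 1.10, limma adjusted p = 0.447). Grm8, a presynaptic glutamate receptor, was at 5.73 to 6.45 TPM at 8 weeks and at 4.27, 2.56, 6.49, 4.10 and 5.01 TPM at 6 weeks, a wider spread. Scly, selenocysteine lyase, was at 10.4 to 13.7 TPM at 8 weeks and 7.23 to 11.9 TPM at 6 weeks. Gin1 was at 5.43 to 6.53 TPM at 8 weeks and 3.96 to 5.13 TPM at 6 weeks, with no overlap. Enpep, the aminopeptidase that trims angiotensin II, was at 1.77 to 2.68 TPM at 8 weeks and 1.56 to 1.92 TPM at 6 weeks.

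In 13 of 15115 genes (0.086%) every CAC 8 week library lay above every CAC 6 week library, and in 0 genes (0%) every one lay below. With no difference between the weeks, 0.126% of genes would be expected in each direction, so a lack of overlap is not read as a change. Gin1, Pigq and Shroom1 were among the 13. Others, named after their values were seen, were Col4a1, a basement membrane collagen gene with a change of 0.32, and Higd1b, a pericyte gene with a change of 0.22. On the lower side the 12 genes with the lowest p were Btg3, Jsrp1, Akip1, Sarnp, Ddit3, Slc25a10, Psmb3, Cxcl14, Hmgb3, Ms4a6d, Dnph1 and Cx3cr1. Ddit3, a transcription factor of the integrated stress response, was at 27.6 to 37.4 TPM at 8 weeks and 33.5 to 41.4 TPM at 6 weeks. Cxcl14, a chemokine of a set of cortical interneurons, was at 105 to 128 TPM at 8 weeks and 123 to 139 TPM at 6 weeks. Sarnp, an RNA export factor, spread widely at 8 weeks, at 24.7 to 76.3 TPM against 74.8 to 89.8 TPM at 6 weeks, while the mock libraries were at 23.2 to 76.2 TPM at 8 weeks and 69.6 to 81.4 TPM at 6 weeks.

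Btg3, an antiproliferative gene on chromosome 16, had the largest log2 change of the genes named, -3.18 (-4.79 to -1.58, limma adjusted p = 0.447), and its sequence bears on how that value is read. It was listed at 0 to 1.31 TPM in the CAC 8 week libraries, against 21.1, 0.373, 15.8, 41.1 and 12.6 TPM in CAC 6 week replicates 1 to 5. Gm7334, a processed pseudogene on chromosome 17, holds the same coding bases. In the GENCODE vM21 transcripts of GRCm38 all 756 coding bases of Btg3 are identical to the 756 bases of the Gm7334 transcript. The first 90 of them are shown once for each copy, with the start codon in capitals.
Btg3: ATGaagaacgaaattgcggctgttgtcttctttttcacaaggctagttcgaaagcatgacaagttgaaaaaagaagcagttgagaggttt
Gm7334: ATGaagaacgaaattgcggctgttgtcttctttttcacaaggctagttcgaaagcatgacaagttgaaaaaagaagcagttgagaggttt
Reads from these bases cannot be assigned to a copy by sequence. The levels of both copies together were 29.1 to 44.4 TPM at 8 weeks and 36.2 to 46.8 TPM at 6 weeks, with means of 39.6 ± 6.20 TPM (SD, n = 7) and 41.3 ± 3.97 TPM (n = 5). The log2 difference of the sums was -0.07 (exact two-sided permutation p = 0.588). The share given to Btg3 was 0% to 4.50% at 8 weeks and 0.957% to 97.1% at 6 weeks, and it also varied in mock, from 0% to 47.4% at 8 weeks and 0% to 51.2% at 6 weeks. The change of Btg3 alone is therefore uncertain.

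**Figure D5:**
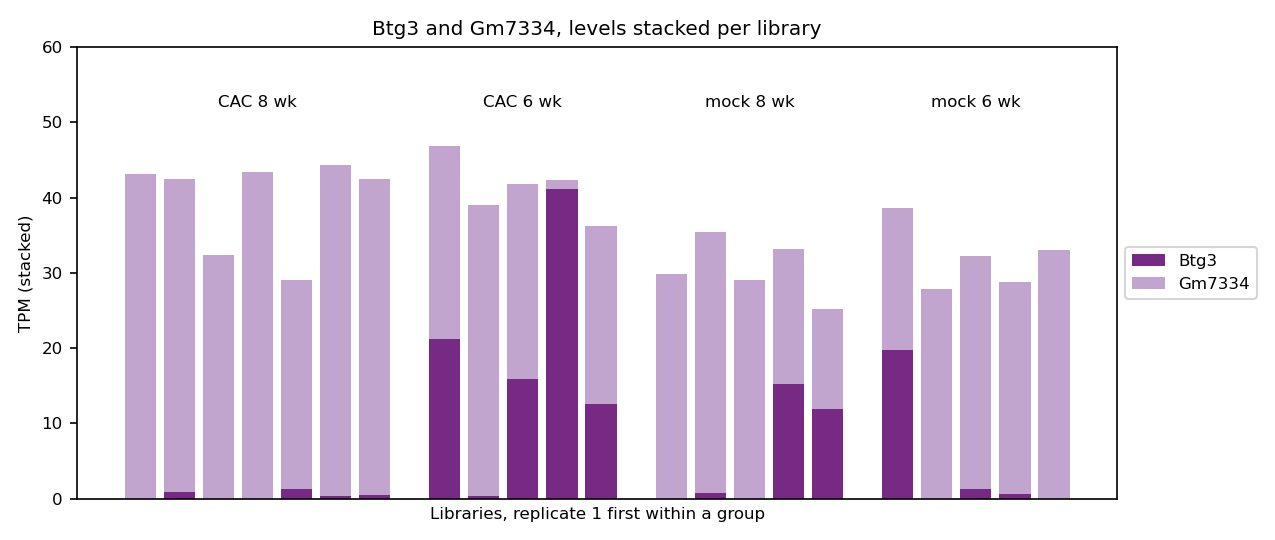
Level in TPM of Btg3 (dark) and Gm7334 (light), stacked, in each library of CAC 8 weeks, CAC 6 weeks, mock 8 weeks and mock 6 weeks. The stacked height is 29.1 to 44.4 TPM in CAC 8 weeks and 36.2 to 46.8 TPM in CAC 6 weeks, while the share given to Btg3 differs from library to library.

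No marker of the other tissues or of blood passed the test, and none or few of the erythroid, choroid plexus, hypothalamus, striatum and thalamus changes were bounded. Meningeal fibroblast markers had 10 of 11 bounded and hippocampus markers 6 of 8. Erythroid genes had a median change of 0.51 with 5 of 5 positive, which was -0.15 without replicate 3, and their summed level was 157 to 2396 TPM in 6 CAC 8 week libraries and 22528 TPM in replicate 3, against 669 to 1575 TPM at 6 weeks. Hypothalamus and pituitary markers had a median of -0.40 with 0 of 10 positive and 0 bounded, and the median was -0.10 without CAC 6 week replicate 1. Oxt, the oxytocin gene, was at 0.564 to 7.57 TPM at 8 weeks, against 80.6, 21.6, 5.74, 0.938 and 0.674 TPM at 6 weeks, where replicates 1 and 2 were high and the other 3 overlapped the 8 week range. Thalamus markers had a median of 0.18 with 2 of 10 bounded, which was 0.01 without CAC 8 week replicate 5. Choroid plexus markers had a median of 0.13 with 0 of 8 bounded, 0.46 without CAC 6 week replicate 4 and -0.23 with the replicate number as a block, and striatum markers -0.10 with 0 of 11 bounded, and -0.04 without CAC 6 week replicate 2. Lymphocyte markers had 8 of 13 members tested and a median of -0.04, and 0.04 without CAC 6 week replicate 2.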

How the data were processed

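Neocortex RNA was sequenced from 62 libraries of 12 groups (TruSeq stranded mRNA kit, NovaSeq 6000, per the labels' protocols). The authors deposited TPM values per gene symbol. The build was mm10, per the submitters' processing notes, while no aligner, quantification tool or annotation is given in the sources used here. The protocol text also mentions LLC cells and 3 weeks, which match no group. The table held 47643 symbols, of which 22257 were 0 in every library and 45065 matched GENCODE vM21 (GRCm38), the source of coordinates and sequences. Because TPM are not counts, depth is only an estimate, from the smallest steps of low values, of which 86.4% came out whole within 0.05 of a read.

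Libraries were grouped by label. A single limma fit (3.58.1, R 4.3.3) of log2(TPM + 1) over all 62 libraries, with a variance trend, gave each contrast, with Benjamini-Hochberg adjustment over the 15115 genes whose mean reached 1 TPM in some group. An adjusted p under 0.05 is a call. On the log2(TPM + 1) scale the fold change of a low gene is understated. Limma p-values and intervals rest on the spread between libraries within all 12 groups, pooled for each gene, and not on the CAC libraries alone. Exact permutation tests used the 792 regroupings of 12 libraries (smallest p 0.00126). The fit was tested on simulated data. Genes named are those with the lowest p in each direction, up to 12, a set of 28 genes, and up to 4 members of each list with the lowest p, plus ranges of markers. The members and lists were chosen with earlier results of these data known. Alternatives were another pseudocount, other filters, TMM scaling (TMM coded for this work), robust and array-weighted fits, fewer groups, a replicate block, each library left out, and, both added after seeing the data, a filter on the mean over all libraries and voom on estimated reads. No 2 libraries held identical values.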

Additional observations from a re-analysis of the deposited data

Results flagged for a closer look

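In 49 named genes each CAC group was searched for a single library whose gap to the nearest other exceeded Dixon's 95% value, 98 groups in all. This was so in 12 of the 98, 7 at 8 weeks and 5 at 6 weeks. The rule gives about 1 in 20 for normally distributed values, while TPM were used here. The genes were also chosen with earlier results known and include the related erythroid genes Hba-a1, Hbb-bs and Alas2. The count is therefore a description and cannot be set against that share. Of the 7 at 8 weeks, 6 fell on replicate 3. That library held the highest erythroid levels, with Hba-a1 at 4592 TPM against 41.4 to 1127 TPM in the other 6, Hbb-bs at 8702 TPM against 68.3 to 1113 TPM and Alas2 at 80.8 TPM against 0.567 to 9.24 TPM. It was also highest for Lcn2, at 13.2 TPM against 1.99 to 4.68 TPM, and for Ighm, at 39.7 TPM against 16.1 to 25.6 TPM. Gjb6 was lowest there, at 59.8 TPM against 97.6 to 118 TPM. Cebpd was highest in 8 week replicate 2, at 13 TPM against 8.02 to 9.84 TPM.

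At 6 weeks the genes differed in which library stood apart. Replicate 1 was highest for Sult1a1, at 64.9 TPM against 33.3 to 40.2 TPM, and for Rab26, at 28.6 TPM against 20.7 to 22.5 TPM. Replicate 2 was highest for Hba-a1, at 773 TPM against 310 to 408 TPM, and for Akip1, at 6.22 TPM against 4.50 to 4.99 TPM. Replicate 4 was highest for Dnph1, at 7.55 TPM against 5.85 to 6.31 TPM.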

How the results depend on the processing

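The count of 0 genes for CAC at 8 against 6 weeks held with each library left out (0 to 0) and in the other alternatives, except with no filter on level, which gave 1 gene, Stfa2l1, at means of 0.637 TPM at 8 weeks and 0.0695 TPM at 6 weeks. Without replicate 3 it was 4 with no filter and 1, Aifm3 (change 0.40, adjusted p = 0.00803), in a limma fit of only the 6 groups of weeks 6 and 8. Mean Aifm3 was higher at 8 than at 6 weeks in mock and NCAC mice as well. At 8 and 6 weeks it was at 60.1 and 47.4 TPM in CAC with replicate 3 included. In mock it was at 54.2 and 43.1 TPM, and in NCAC at 49 and 41.2 TPM. The cause of these calls was not tested. Mock gave 1 with no filter. NCAC gave 1863 with array weights and 0 to 1 with a library left out. CAC against mock at 6 weeks gave 977 with array weights and 56 to 420 with a library left out, and at 8 weeks 3425 with array weights and 747 to 1829 with a library left out. Bounded genes numbered 12179 by voom, 12622 with a pseudocount of 0.1, 23922 of 25386 with no filter and 13497 to 13760 with a library left out. With the replicate block, CAC at 8 against 6 weeks gave 0 genes and CAC against mock at 8 weeks 516. Same-numbered libraries did not deviate together throughout, so the numbers were not read as pairs. In CAC at 8 against 6 weeks the sign of the change differed in at least 1 setting for 14 of 49 named genes, among them Hbb-bs, Hba-a1, Plin4, Osmr and Fos, and for 26 of 44 list medians. Lcn2 lay between 0.63 and 1.11 over 24 settings, with a lowest adjusted p of 0.113 by limma. Genes under 2 TPM limit these bounds most.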
